A study of Homo sapiens with 4 samples.

Results

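The genes described here are 10 targets of the transcription factor p53 that act in growth arrest or feed back on p53: CDKN1A, MDM2, PPM1D, BTG2, SESN1, SESN2, PLK2, PLK3, CCNG1 and ZMAT3. They were chosen by name, and every probe that the platform annotation pairs with one of these symbols or an older alias was taken. This gave 13 of 48803 probes, for 9 of the 10 genes. BTG2 was not analysed here, and PLK3 had a probe that was detected on no array. The other 8 genes were measured, of 10077 genes detected on at least 1 array, through 11 probes, 8 of which were detected on all 4 arrays.

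MelJuSo cells, a melanoma line of human skin, were profiled on Illumina beadchips, with a single array for each of 4 groups. One group received 10 µM aclarubicin, one 9 µM doxorubicin, and one 10 µM etoposide and 10 µM aclarubicin, each time for 2 h, and RNA was taken 1 day after the drug was washed out. The fourth group was left untreated, and the labels give no times for it. Aclarubicin and doxorubicin are anthracyclines, and their doses differed. A single array per group gives no replicate check and no test, so every difference given is one between arrays, not between conditions. The error at hand is technical. For 1066 genes with 2 probes detected on all arrays, the SD of the gap between the log2 differences of the 2 probes was taken. This SD divided by the square root of 2 is called the probe disagreement here. It was 0.42 for aclarubicin minus untreated, 0.31 for doxorubicin minus untreated and 0.47 for the combination minus untreated.

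In unstressed cells p53 is held low by MDM2, the ubiquitin ligase that marks it for degradation, and DNA breaks relieve that hold. Stabilised p53 then switches on CDKN1A, whose product p21 inhibits cyclin-dependent kinases and stops the cell cycle. It also switches on MDM2 itself and PPM1D, whose product WIP1 is a phosphatase that removes damage-signalling phosphates from p53 and its kinases, so that the response limits itself. BTG2 is an antiproliferative p53 target, and the sestrins, polo-like kinases, cyclin G1 and ZMAT3 are p53 targets whose roles are given with their values. Doxorubicin and etoposide are topoisomerase II poisons that leave DNA breaks behind, whereas aclarubicin keeps the enzyme from binding DNA.

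The promoter windows of the members are shown because the genes share p53 as a regulator. The windows come from RefSeq (GRCh38.p14) and span 250 bases before to 50 bases after an annotated start; all 10 genes had one, in 17 windows. The p53 consensus was searched as a pair of adjacent half-sites without a gap, 20 bases with at most 3 mismatches, and it reads the same on both strands. It was found in 3 of the 17 windows, belonging to 2 of the 10 genes, and in 5.20% of all 35116 windows. MDM2 had it in the windows of 2 neighbouring downstream starts, which overlap and hold the same sites; this is the promoter known as P2, in the first intron. The window of start 3, counted from the 5′ end of the gene, chr12:68808767-68809066 on the plus strand, held 2 matches, one of 2 mismatches beginning 94 bases upstream of the start and one of 3 mismatches beginning 56 bases upstream. The window of start 3 of SESN1, chr6:109008939-109009238 on the minus strand, held 1 match of 3 mismatches, 49 bases upstream. The window of CDKN1A, chr6:36678464-36678763 on the plus strand, held no match; its well-known p53 sites lie farther upstream than this window reaches. Capitals mark the matches.
MDM2: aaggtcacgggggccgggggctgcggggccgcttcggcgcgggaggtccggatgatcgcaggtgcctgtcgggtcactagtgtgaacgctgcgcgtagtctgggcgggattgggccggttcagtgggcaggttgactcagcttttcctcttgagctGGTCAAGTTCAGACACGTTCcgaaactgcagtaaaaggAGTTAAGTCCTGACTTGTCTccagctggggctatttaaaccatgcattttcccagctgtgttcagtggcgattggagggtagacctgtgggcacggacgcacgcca
SESN1: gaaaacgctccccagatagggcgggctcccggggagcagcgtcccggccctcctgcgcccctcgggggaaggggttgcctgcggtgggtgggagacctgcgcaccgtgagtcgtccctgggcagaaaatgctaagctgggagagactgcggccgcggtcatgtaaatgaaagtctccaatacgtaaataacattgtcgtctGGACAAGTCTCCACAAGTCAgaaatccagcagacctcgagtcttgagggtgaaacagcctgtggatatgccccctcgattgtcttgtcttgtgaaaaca
CDKN1A: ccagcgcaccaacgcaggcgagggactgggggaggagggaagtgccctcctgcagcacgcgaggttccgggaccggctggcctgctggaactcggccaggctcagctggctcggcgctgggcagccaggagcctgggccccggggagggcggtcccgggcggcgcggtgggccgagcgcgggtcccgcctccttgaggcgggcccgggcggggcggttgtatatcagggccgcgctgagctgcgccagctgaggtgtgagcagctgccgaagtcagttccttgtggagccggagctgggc
The letters GGGCGG, the core bound by SP1, were found on either strand in 16 of the 17 windows and in 45.0% of all windows. A match describes letters only, and the absence of one says nothing beyond this window.

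The arrays differed as wholes. A probe was called detected at a detection p-value under 0.01, and 9864 probes were detected after aclarubicin, 14773 after doxorubicin, 9128 after the combination and 13521 in untreated cells. Values were therefore compared after quantile normalization, which gives the arrays the same distribution, and a gene was called at a 2-fold difference. The lowest level at which a probe was still detected then stood at 6.19 on the log2 scale after aclarubicin, 5.05 after doxorubicin, 6.43 after the combination and 5.25 in untreated cells, so that a probe just detected stood at a higher normalized level on both arrays with aclarubicin. Without scaling between arrays, the log2 difference from untreated cells had a median over all genes of -0.64 for aclarubicin, of 0.04 for doxorubicin and of -0.89 for the combination, against 0.04, -0.02 and 0.02 once quantile-normalized. The part of these differences between arrays in the members' values was not tested. Of 12 melanocyte markers, 6 were detected after aclarubicin, 6 after doxorubicin, 5 after the combination and 7 in untreated cells. MITF, PMEL and SOX10 were among those in untreated cells. For TYR, DCT and MLANA no named probe was detected on any array, and whether each had a named probe is not shown here. The summed signal of the 7 measured ranged between 2496 and 3566 in the treated groups and was 4906 in untreated cells. Of markers of other cell types, KRT10 of 5 keratinocyte genes, LUM and PDGFRA of 6 fibroblast genes, PECAM1 and VWF of 3 endothelial genes and 0 of 4 leukocyte genes were detected on at least 1 array, VWF on the doxorubicin array alone. Their part in the results was not tested.

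**Figure D1:**
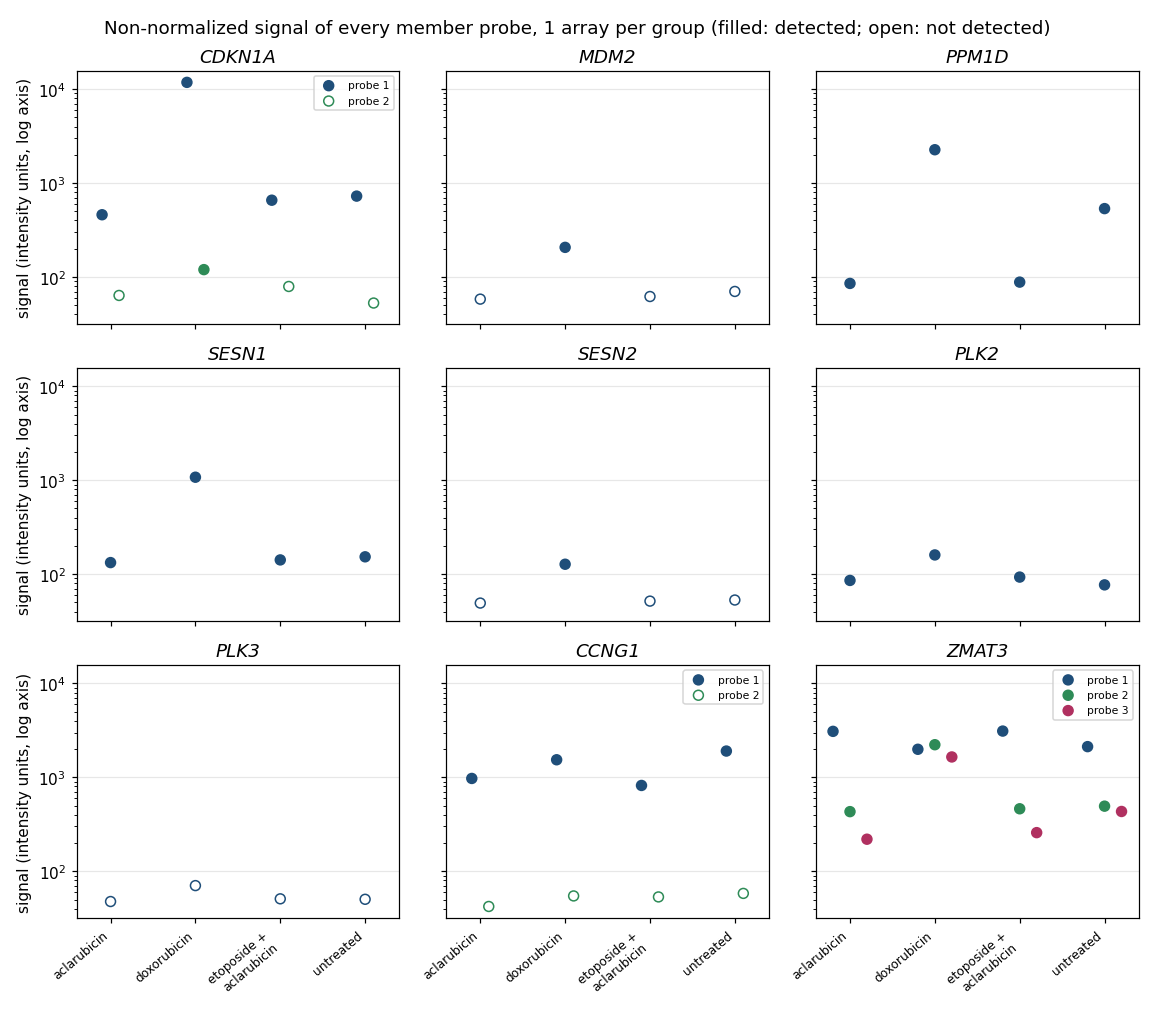
Non-normalized signal (intensity units, log axis) of the 13 probes of 9 genes on each of the 4 arrays; filled points were detected and open points were not. The doxorubicin array reads highest for every gene except CCNG1 and except the first ZMAT3 probe, and PPM1D is the gene that reads far lower in both groups given aclarubicin than in untreated cells.

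After doxorubicin, 4 of the 8 measured genes passed 2-fold upward against untreated cells and 0 passed it downward. They were CDKN1A, MDM2, PPM1D and SESN1, where 11.6% of the 9986 genes compared were called higher and 10.1% lower. The members' median log2 difference was 1.23, against -0.02 over all genes compared, with bounds counted at their bound. Without scaling 6 of 8 were higher, where 13.3% of all genes were. With quantile normalization their values spread between -0.31 for CCNG1 and 5.03 for CDKN1A. In bulk RNA a change in the number of cells that express a gene and a change in its RNA per cell cannot be told apart.

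CDKN1A, the inhibitor of cyclin-dependent kinases, gave the largest difference among the members. Its first probe read 461 signal units after aclarubicin, 11823 after doxorubicin, 658 after the combination and 727 in untreated cells. The doxorubicin array alone stood out, and the other 3 arrays lay between 461 and 727. The log2 difference from untreated was 5.03 after doxorubicin, 32.6-fold, the sixth highest of 8511 genes detected on both arrays. That size depends on the processing: it was 4.08 without scaling, 4.07 under median scaling, 4.15 under cyclic loess and 3.12 as the mean over both CDKN1A probes, each still past 2-fold. With quantile normalization the difference was 0.18 after aclarubicin and 0.92 after the combination, both under 2-fold, and without scaling these became -0.70 and -0.15. For the combination it passed 2-fold under median scaling, at 1.06, and as the mean over both CDKN1A probes, at 1.33. A second CDKN1A probe, listed under the same transcript, was much dimmer, at 63.7 after aclarubicin, 120 after doxorubicin, 79.4 after the combination and 52.9 in untreated cells. It was detected after doxorubicin only, with a lower bound of 0.59 on the log2 difference from untreated, which is not a call. Its normalized level after doxorubicin minus that after the combination was -0.52, although the doxorubicin signal was the higher.

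MDM2, the ligase that targets p53 and is itself a p53 target, read 58.2 after aclarubicin, 207 after doxorubicin, 62.0 after the combination and 70.2 in untreated cells. Only the doxorubicin array passed the detection threshold, so the fold is a lower bound of at least 2.77 against untreated cells. Against the other treatments the bound was at least 1.45-fold over aclarubicin and at least 1.23-fold over the combination, neither of them a call; without scaling the bounds were 1.77 and 1.81 on the log2 scale, and 2.03 against untreated cells. The MDM2 call against untreated cells was lost with a background offset of 50, at 0.97, and stood at 1.01 without background correction. The untreated array was near detection, with a detection p-value of 0.0145.

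PPM1D, the phosphatase arm of the feedback, was the member that lay far above untreated cells in one group and far below in the others. It read 85.5 after aclarubicin, 2267 after doxorubicin, 88.3 after the combination and 535 in untreated cells. The signals of both groups given aclarubicin were near the detection limit (detection p-values of 0.0066 and 0.0079) and lay well below untreated cells, whereas doxorubicin lay well above. The log2 difference from untreated was -2.12 after aclarubicin (4.34-fold lower), 2.67 after doxorubicin (6.38-fold higher) and -1.74 after the combination (3.34-fold lower). Among the 6568 genes detected on both arrays, PPM1D stood at percentile 4.46 after aclarubicin, and at percentile 98.8 among the 8511 after doxorubicin. Under the 6 alternatives that change its value PPM1D had these 3 signs, with ranges of -3.21 to -1.71 after aclarubicin, 2.06 to 2.56 after doxorubicin and -3.13 to -1.44 after the combination.

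SESN1 and SESN2 encode sestrins, which restrain the growth kinase complex mTORC1 and help to reduce oxidised peroxiredoxins. SESN1 read 133 after aclarubicin, 1076 after doxorubicin, 142 after the combination and 153 in untreated cells. Again the doxorubicin array stood apart from the other 3, which differed little. The log2 difference from untreated was 0.82 after aclarubicin, 3.25 after doxorubicin (9.53-fold) and 1.25 after the combination (2.38-fold); without scaling it was -0.26, 3.10 and -0.14, so the call after the combination and its direction rest on the scaling. That call was also lost with an offset of 50, at 0.98, and without background correction, at 0.997. SESN2 read 49.2 after aclarubicin, 127.5 after doxorubicin, 51.6 after the combination and 53.03 in untreated cells, and only doxorubicin was detected. SESN2 was at least 1.60-fold higher after doxorubicin than in untreated cells, short of a call, and its bound without scaling was 1.16 on the log2 scale, past 2-fold. Their paralog SESN3 showed the same picture, detected after doxorubicin only (119, against 53.7 after aclarubicin, 51.6 after the combination and 56.4 in untreated cells) with a bound of at least 1.49-fold over untreated cells.

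The polo-like kinases PLK2 and PLK3 are stress-responsive relatives of the mitotic kinase PLK1. PLK2 was dim, with 85.7 after aclarubicin, 160 after doxorubicin, 93.1 after the combination and 76.9 in untreated cells, and was detected on all arrays. Its detection p-values were near the limit after aclarubicin (0.0066), after the combination (0.0040) and in untreated cells (0.0079). Its normalized levels there were 6.28, 6.78 and 5.31, close to the lowest detected levels of 6.19, 6.43 and 5.25. The part of these array limits in the PLK2 differences was not tested. Quantile-normalized differences from untreated were 0.97 with aclarubicin, 0.99 with doxorubicin and 1.47 with the combination, the last a 2.76-fold call. Without scaling they were 0.25, 1.498 and 0.44, which makes doxorubicin the one that passes 2-fold, and with an offset of 50 the combination stood at 0.98. All 3 were positive under the same 6 alternatives, but the order of the treatments depends on the scaling. PLK3 read 47.6 after aclarubicin, 70.3 after doxorubicin, 50.9 after the combination and 50.3 in untreated cells; with a detection p-value of 0.0132 the doxorubicin array came nearest to detection.

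CCNG1 encodes cyclin G1, which recruits a phosphatase that activates MDM2. It read 973 after aclarubicin, 1538 after doxorubicin, 819 after the combination and 1904 in untreated cells, highest in untreated cells. Differences from untreated were -0.57, -0.31 and -0.54 in the order aclarubicin, doxorubicin and combination, all under 2-fold, and CCNG1 was thus the one member with a negative value in all 3 comparisons. It passed 2-fold lower after the combination only without scaling, at -1.25. A second CCNG1 probe was detected on no array.

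ZMAT3, an RNA-binding zinc finger protein gene, had 3 probes detected on every array, and the probes disagreed. The brightest read 3086 after aclarubicin, 1989 after doxorubicin, 3108 after the combination and 2123 in untreated cells. The second read 431 after aclarubicin, 2224 after doxorubicin, 463 after the combination and 493 in untreated cells. The third, listed under a different transcript, read 219 after aclarubicin, 1648 after doxorubicin, 258 after the combination and 433 in untreated cells. So the doxorubicin array was the lowest of the 4 for the first probe and the highest for the other 2. Their log2 differences between doxorubicin and untreated cells were -0.02, 2.79 (6.93-fold) and 2.42 (5.34-fold), a gap of several times the usual disagreement between probes. By the rule that a gene is represented by its brightest probe ZMAT3 was not called; the mean over its probes gave 1.73, which is a call, and then 5 of 8 members were higher after doxorubicin, where 10.7% of all genes were. For the combination minus untreated cells the 3 probes stood at 0.87, 1.15 (2.21-fold) and 0.55, and without scaling at 0.56, -0.10 and -0.82. The first and second probes are annotated to the same transcript, and their places along it were not analysed here.

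**Figure D2:**
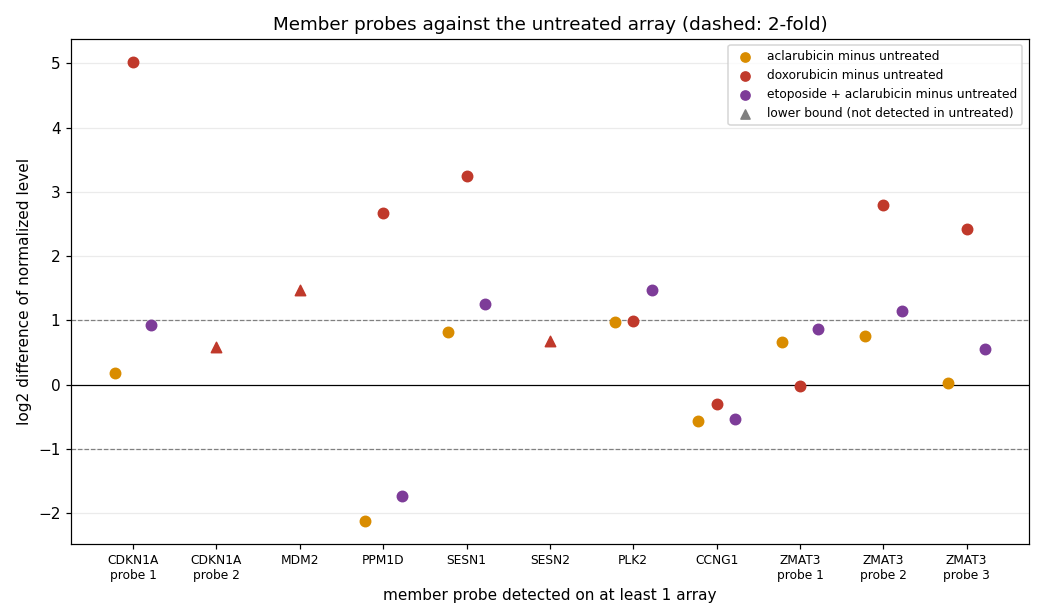
Log2 difference of quantile-normalized level from the untreated array for the 11 member probes detected on at least 1 array; circles are measured on both arrays, triangles are lower bounds and dashed lines mark 2-fold. Doxorubicin gives the highest points for CDKN1A, PPM1D, SESN1 and the 2 dimmer ZMAT3 probes, and PPM1D alone lies below -1 in both groups given aclarubicin.

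After aclarubicin, none of the members passed 2-fold upward and 1, PPM1D, passed it downward, of the 6 detected on that array or in untreated cells. Over all genes compared 16.9% were higher and 17.3% lower, and 1 of 6 is a share near that background. The members' median was 0.42 and that of all genes 0.04; without scaling they were -0.48 and -0.64. The highest members were PLK2 at 0.97 and SESN1 at 0.82. Of the 6, 0 were higher and 1 was lower without scaling, where 2.56% of all genes were higher and 38.2% lower.

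The combination of etoposide and aclarubicin gave SESN1 and PLK2 as 2 higher genes and PPM1D as 1 lower gene of 6 compared. The background was 19.5% higher and 17.4% lower. The median of the members was 0.90, against 0.02 over all genes, and -0.14 against -0.89 without scaling. Without scaling 0 of the 6 were higher, where 2.59% of all genes were, and 2, PPM1D and CCNG1, were lower, where 45.2% of all genes were. The 3 comparisons with untreated cells share the untreated array, so their values are given side by side and are not independent.

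**Figure D3:**
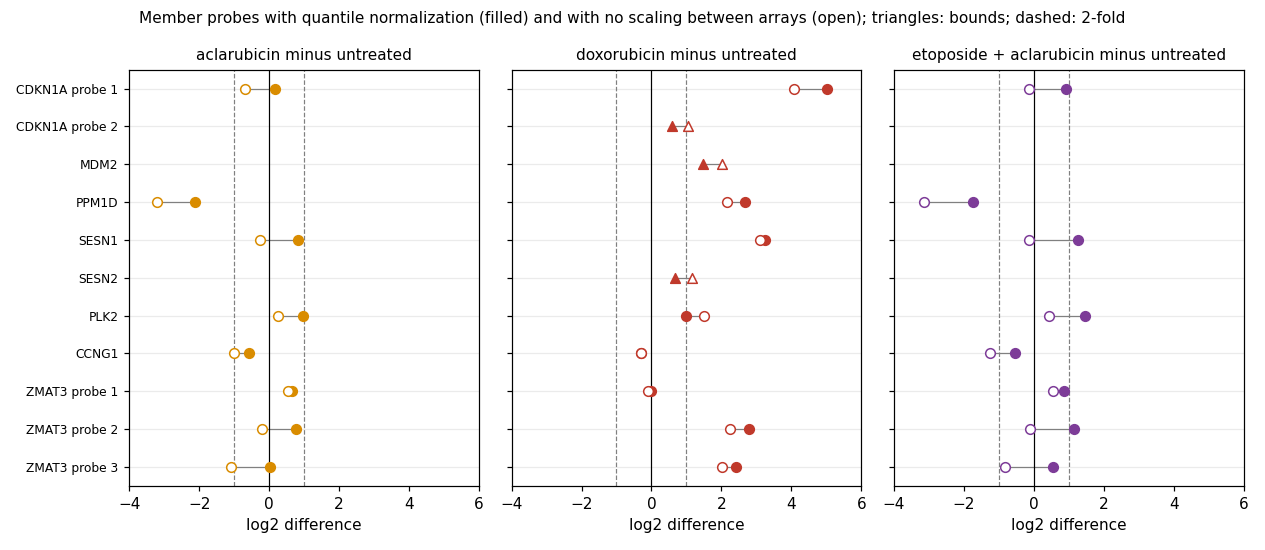
Log2 difference from the untreated array for member probes (rows, 11 in all), with quantile normalization (filled) and with no scaling between arrays (open); triangles are bounds and dashed lines mark 2-fold. CDKN1A, PPM1D and SESN1 stay beyond 2-fold after doxorubicin on both scales, and PPM1D does so below -1 in both groups given aclarubicin. After the combination the first CDKN1A probe, SESN1 and the 2 dimmer ZMAT3 probes lie on opposite sides of 0 on the 2 scales.

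Set directly against aclarubicin, doxorubicin had 3 of the 8 members past 2-fold upward and 0 downward, where 18.3% of all genes were higher and 18.7% lower. The 3 were CDKN1A at 4.85 (28.8-fold), PPM1D at 4.79 (27.7-fold) and SESN1 at 2.43 (5.39-fold), and the usual probe disagreement in this comparison was 0.50. CDKN1A and PPM1D ranked 8 and 10 from the highest of 6569 genes detected on both arrays, with PPM1D at 2.67 for doxorubicin and -2.12 for aclarubicin when each is set against untreated cells. The 2 dimmer ZMAT3 probes were 2.04 and 2.40 higher, while the first was at -0.69. SESN2 had no bound here and does not enter the members' median of 0.54, against 0.05 over all genes. That median is the lower bound of MDM2 itself, a gene detected on the doxorubicin array only. Without scaling 5 of 8 members were higher, where 40.9% of all genes were.

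Doxorubicin against the combination gave the same 3 genes as higher, of 8 compared and with 0 lower; the background was 17.6% higher and 18.7% lower. PPM1D differed by 4.41 (21.3-fold), CDKN1A by 4.10 (17.2-fold) and SESN1 by 2.00. As the mean over its probes CDKN1A differed by 1.79 here and by 2.67 from aclarubicin alone. PPM1D ranked 12 and CDKN1A 19 of 6135 genes. The usual probe disagreement was 0.53. PLK2 was at -0.48, and at 1.06 without scaling. The median of the 7 members with a value or bound was 0.30, against 0.06 over all genes. Here too the members' median is the lower bound of MDM2. Without scaling 5 of 8 members were higher, where 47.0% of all genes were.

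Etoposide added to aclarubicin, against aclarubicin alone, had 0 of 6 members past 2-fold upward and 0 downward. Few genes passed it in this comparison, 0.451% higher and 0.961% lower of 6870, and the usual probe disagreement was 0.17. All 6 members compared were positive, with a median of 0.40 against 0.02 over all genes, of which 3429 were positive. CDKN1A was the highest at 0.75 (658 after the combination, 461 after aclarubicin), at percentile 97.9 of 6111 genes, and was positive under the 7 alternatives that change its value, between 0.55 and 0.89. PLK2 was at 0.50, SESN1 at 0.43, PPM1D at 0.38, ZMAT3 at 0.20 and CCNG1 at 0.03. Without scaling the median of the members was 0.10, against -0.25 over all genes, and CCNG1 was at -0.26.

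The genes whose differences from untreated lay nearest to those of CDKN1A were sought among the 5946 genes detected on all 4 arrays, as the smallest Euclidean distance over the 3 log2 differences. SUGCT, which encodes a mitochondrial CoA transferase, was the closest at a distance of 0.46, with differences of 0.34 (aclarubicin), 5.27 (doxorubicin) and 0.57 (the combination). SLC30A1, a zinc exporter gene, followed at 0.96, TP53I3, a p53-induced quinone oxidoreductase gene, at 1.12, MR1, an antigen-presenting relative of MHC class I, at 1.13 and the non-coding RNA H19 at 1.24. No other member was among the 5.

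Other genes of the p53 pathway were taken as lists chosen with earlier results of these data known, to be read against the shares of all genes given above. The shares of all genes called lower without scaling were 8.66% for doxorubicin, 38.2% for aclarubicin and 45.2% for the combination. Of 13 measured death targets, 6 were past 2-fold higher after doxorubicin and 0 lower (median 0.99), led by TP53I3 at 6.14 and by PMAIP1, which encodes the BH3-only protein NOXA, at 3.07, with BID at 0.26 and AIFM2 at 0.44 lowest of those detected on both arrays. After aclarubicin 2 of 11 were higher and 3 lower (median 0.20), PMAIP1 at 1.64 and PERP at 1.09 at the top and AEN, a p53-induced nuclease gene, at -1.63 and APAF1, the apoptosome scaffold, at -1.29 at the bottom. After the combination 4 of 11 were higher and 1 lower (median 0.71), PMAIP1 at 2.44 and PERP at 1.74 highest, and AEN at -1.15 the lowest before TNFRSF10A at -0.73. Without scaling these death targets counted 7 higher and 0 lower for doxorubicin, 0 and 5 for aclarubicin, and 1 and 3 for the combination. Of 10 measured targets of repair, metabolism and secretion, 7 were higher and 0 lower after doxorubicin (median 1.79), with the stress cytokine GDF15 16.02-fold higher and the ribonucleotide reductase subunit RRM2B at 3.33, and SCO2 at -0.72 and POLH at 0.34 lowest. After aclarubicin 1 of 9 was higher, SAT1 at 1.07 before RRM2B at 0.56, and 2 were lower, GDF15 at -1.67 and PHLDA3 at -1.09, with a median of -0.76. After the combination 1 of 9 was higher and 0 lower (median 0.15), SAT1 at 1.59 before DDB2 at 0.80, with GDF15 at -0.34 and SCO2 at -0.22 lowest of those detected on both arrays. Without scaling this list counted 7 higher and 0 lower for doxorubicin, 0 and 5 for aclarubicin, and 1 and 5 for the combination.

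Of 12 measured regulators of p53, 6 were past 2-fold lower after doxorubicin and 0 higher, with a median of -0.93; without scaling 5 were lower and 0 higher. The 6 were HIPK2, a kinase that phosphorylates p53, at -1.71, the ubiquitin ligase RCHY1 at -1.71, the checkpoint kinases CHEK2 at -1.45 and CHEK1 at -1.23, the ligase COP1 at -1.14, and RPL5, a ribosomal protein that can bind MDM2, at -1.01. ATM, the kinase that senses breaks, was at -0.32. MDM4, the partner of MDM2, was detected after doxorubicin only, with a bound of at least 1.10-fold over untreated cells. After aclarubicin 2 of 11 were lower and 0 higher, COP1 at -2.80 and TP53BP1, which was no longer detected, at least 2.04-fold lower, with a median of -0.33. COP1 was also the 1 lower regulator after the combination, where it was not detected, at least 11.0-fold lower, and the median of 11 was -0.29. Without scaling 7 of 11 regulators were lower after aclarubicin, with a median of -1.39, and 9 of 11 after the combination, with a median of -1.76. Of all genes 38.2% were then lower after aclarubicin and 45.2% after the combination. The COP1 signals were 124 after aclarubicin, 659 after doxorubicin, 66.7 after the combination and 1249 in untreated cells.

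Paralogs of the members had medians of -0.69 after aclarubicin, -0.25 after doxorubicin and -0.38 after etoposide with aclarubicin, the last being 0.28 under median scaling and -1.17 without scaling. After doxorubicin 1 of 10 was higher, BTG1 at 1.11, and 1 lower, PLK1 at -1.41. BTG1 encodes an antiproliferative relative of BTG2. After aclarubicin 0 of 9 were higher and 2 lower, the phosphatase gene PPM1B at -2.37 and the centriole kinase gene PLK4 at -1.48. After the combination 2 of 9 were higher, CCNG2 at 1.68 and CDKN1B, the gene of p27, at 1.47, and 3 lower, PPM1B at -2.81, PLK4 at -1.86 and PPM1G at -1.05. Without scaling 0 of 9 were higher and 5 lower in each of the groups given aclarubicin. Of all genes 38.2% were then lower after aclarubicin and 45.2% after the combination. CCNG2 was at 0.32 and CDKN1B at 0.46 for the combination without scaling, and BTG1 was at 0.80 for doxorubicin. PPM1B read 112 after aclarubicin, 580 after doxorubicin, 81.7 after the combination and 891 in untreated cells, so that it shared the low values of PPM1D with aclarubicin but not the high value with doxorubicin, where it was at -0.74.

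The cell cycle list holds the cyclins, kinases and pocket proteins that p21 acts on or through and their partners. After doxorubicin 4 of 18 were higher and 5 lower (median -0.07), with CCND3 at 1.49 and PCNA at 1.36 highest and CDK6 at -2.91 and CCNB1 at -1.77 lowest. After aclarubicin 0 of 18 were higher and 8 lower (median -0.84), with CCNA2 at -4.49 and PCNA at -3.03 lowest and RB1 at 0.72 and FOXM1 at 0.71 highest. After the combination 0 were higher and 8 lower (median -0.82), with CCNB2 at -3.78 and CDC25B at -2.90 the lowest detected on both arrays, and FOXM1 at 0.56 and CCND3 at 0.36 the highest. Without scaling the lower genes numbered 4 for doxorubicin, 13 for aclarubicin and 14 for the combination. The shares of all genes lower were then 8.66%, 38.2% and 45.2%. CDKN1A itself, by its first probe with quantile normalization, was under 2-fold in both groups given aclarubicin. For the combination it was past 2-fold under median scaling, at 1.06, and as the mean over its probes, at 1.33.

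**Figure D4:**
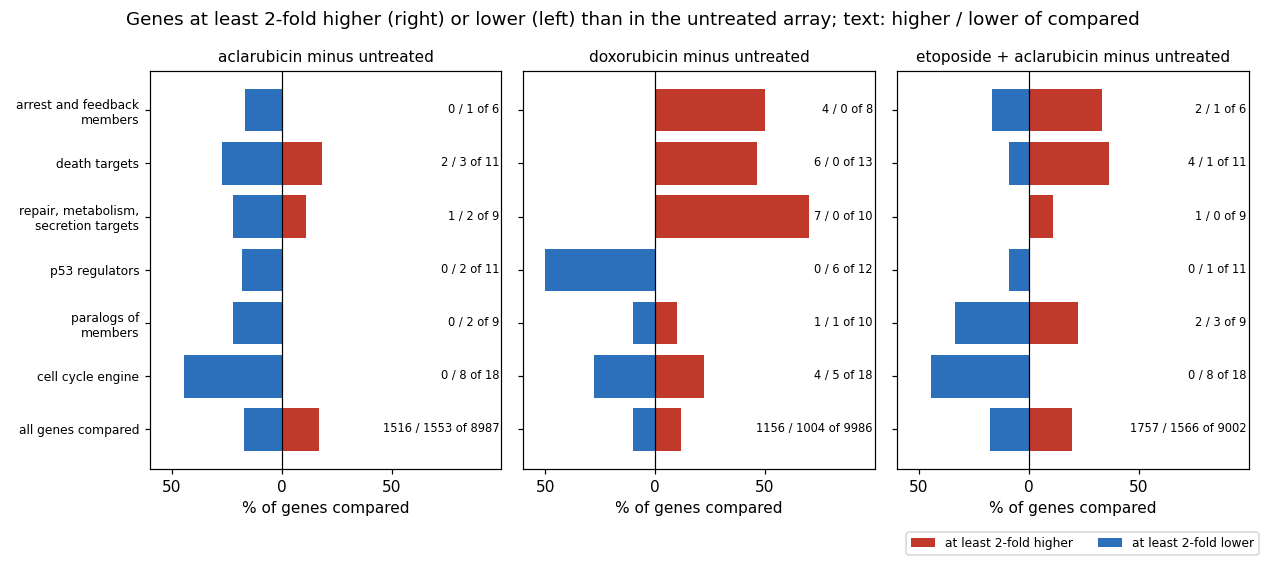
Share of genes (% of those compared) at least 2-fold higher (right) or lower (left) than on the untreated array, for the members, the other lists and all genes; the counts stand beside the bars as higher / lower of compared. After doxorubicin the 3 target lists extend to the right only (4 of 8, 6 of 13 and 7 of 10) and the regulators to the left only (6 of 12). All shares drawn are those with quantile normalization. Without scaling, which is not drawn, 38.2% of all genes were lower after aclarubicin and 45.2% after the combination.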

How the data were processed

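MelJuSo total RNA was labelled with biotin and hybridised to 1-colour Illumina beadchips, 1 array for each of 4 treatments taken from the labels. Non-normalized intensity and a detection p-value for each probe and array were deposited by the authors, per the file headers; the sources used here do not say how the detection p-value was made. The authors' deposited normalized values, made with lumi per the submitters' processing notes, appear to be log2 at the bright end and equal the value table of the series, with a largest difference of 0. Their medians were 2.18 for aclarubicin, 2.30 for doxorubicin, 2.12 for the combination and 2.28 for untreated; since their background step and centring are unknown, they were used as an alternative.

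Intensities were background-corrected by normexp (limma 3.58.1 in R 4.3.3, negative controls inferred from detection p-values, offset 16), quantile-normalized and taken to log2. Detection meant a p-value under 0.01. Of 48803 probes, 27578 had 1 gene symbol, 13 had several and 21212 had none in the annotation used; 27541 matched a GRCh38.p14 gene by Entrez identifier, which changed 0 symbols. A gene was represented by its detected probe of highest mean level. Where 1 of a pair of arrays detected it, the fold is a bound, taken against the lowest detected level on the dim array or, if higher, the value of the probe there; genes detected on neither array were not compared. Calls used 2-fold and no test, and the number of arrays limits the precision. The members and lists were chosen with earlier results of these data known. Every member and regulator or paralog could be named, 2 genes at each end of the other lists, and 5 genes nearest to CDKN1A. The 10 alternatives concerned background, offset, scaling, the authors' values, the detection filter, averaging of probes and thresholds of 1.5-fold and 3-fold. Other computations used pandas 2.3.3, numpy 2.4.6 and matplotlib 3.10.9 under Python 3.11.15.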

Additional observations from a re-analysis of the deposited data

How the results depend on the processing

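No paired analysis was possible because each group has 1 array. After doxorubicin against untreated cells, 3 to 6 members were higher and 0 lower under all 10 alternatives, against 4 and 0. The share of all genes called higher ran from 5.47% at 3-fold to 20.8% at 1.5-fold. The count of higher members after aclarubicin was 2 under median scaling over probes detected on all arrays, 1 under cyclic loess, 1 in the authors' normalized values and 3 at 1.5-fold, against 0. The shares of all genes higher in these settings were 22.8%, 13.6%, 17.8% and 28.2%, against 16.9%. After the combination the count of higher members was 1 without background correction (15.1% of all genes), 4 under median scaling (25.6%) and 0 without scaling (2.59%), against 2 (19.5%). It was 0 with an offset of 50 (14.6%), 3 with the mean over the detected probes (19.1%), 4 at 1.5-fold (29.0%) and 0 at 3-fold (7.73%). Lower members numbered 2 without scaling (45.2% of all genes), against 1 (17.4%). SESN1 after the combination turned to -0.14 without scaling. For doxorubicin against aclarubicin and against the combination, 5 members were higher without scaling and 5 with no detection filter, against 3 each. The shares of all genes were 40.9% and 47.0% without scaling, and 14.5% and 15.3% with no detection filter. With the mean over the detected probes 4 members were higher for doxorubicin against aclarubicin, where 16.4% of all genes were. In both comparisons 1 member was lower under median scaling (22.4% and 23.2% of all genes) and 1 at 1.5-fold (26.6% and 26.0%), against 0 each. At 1.5-fold 1 member was higher for the combination against aclarubicin, against 0, where 5.05% of all genes were. The causes were not tested, beyond the thresholds' own construction. Of the other values, which are single genes and medians, 274 moved by less than the probe disagreement or not at all, and 93 by more. The 274 include values that a setting cannot change, such as averaging of probes for a gene with 1 detected probe. MDM2, SESN2, PLK3 and the second CDKN1A probe are limited by signal over background. PLK2 outside the doxorubicin array, and PPM1D in both groups given aclarubicin, were detected but near the detection limit.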
